A study of Nematostella vectensis with 4 samples.

Results

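The genes described here are the gene models of the starlet sea anemone Nematostella vectensis whose deposited names point to proteins of synaptic vesicles and of regulated exocytosis. They were chosen by name alone, as rows whose name begins with the entry name of a synaptotagmin, a syntaxin, a VAMP, a SNAP, a vesicular neurotransmitter transporter, a syntaxin-binding protein, UNC13, RIM, CAPS, complexin or synapsin. The rule found 93 of 25734 gene rows, which carried 60 different names. A name such as UN13C_RAT is a pointer to a protein family, and what the anemone gene does was not tested. The label fits the names only in part. Of the members, 9 are named after syntaxins of inner membranes, most of them of the Golgi and endosomes, rather than of the synapse. Another 1 carries the name of a plant synaptotagmin (SYT4_ARATH). No syntaxin of the plasma membrane, complexin, vesicular monoamine transporter or vesicular acetylcholine transporter name was matched. No sequence or chromosome position could be attached to the models, because 0 of their identifiers (NVE numbers) were found in the gene table at hand.

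The study profiled single cells from sub-adult polyps 5 months old that were cut into tentacle, mesentery, pharynx and body wall, with 1 10x Genomics library (version 2 chemistry) for each tissue. The pieces were dissociated with TrypLE, a trypsin-like enzyme, per the labels' protocols; the sources used here do not give strain, sex or the number of animals pooled. All 4 groups are untreated tissues, and the question the design poses is how the cells and transcripts of the tissues differ. With 1 library per tissue a difference between tissues is also a difference between libraries, there is no replicate error, and no test was run. Intervals below are exact 95% intervals that cover counting error only.

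Transmitter release works through a shared machine. A vesicle is filled by a transporter (VGLUT for glutamate, VIAAT for GABA and glycine), UNC13 and RIM prepare it for fusion, SNARE proteins (a VAMP on the vesicle, a syntaxin and SNAP25 on the target membrane) pull the membranes together, and synaptotagmins sense the calcium that triggers fusion. NSF and its SNAP adaptors then take the SNARE complex apart, while other VAMPs and syntaxins serve traffic between Golgi, endosomes and lysosomes in every cell. In cnidarians the same families are of interest outside neurons too, since the stinging cell (cnidocyte) releases a Golgi-derived capsule, whose wall holds the minicollagen Ncol3, by exocytosis.

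Barcodes with at least 300 UMIs were kept, 1299 in tentacle, 1357 in mesentery, 2804 in pharynx and 1652 in body wall, and they held 1563722 to 2755343 UMIs per tissue. The median kept barcode had 703 UMIs in tentacle, 542 in mesentery, 563 in pharynx and 766 in body wall. Levels are given as UMIs per 1000000 UMIs of the tissue or cluster (CPM), and 3 UMIs correspond to 1.63 CPM in tentacle, 1.92 in mesentery, 1.09 in pharynx and 1.50 in body wall. Of the kept barcodes, 22 sequences occurred in more than 1 library.

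Member genes together took 0.200% of tentacle UMIs (0.194 to 0.207), 0.113% of mesentery UMIs (0.108 to 0.118), 0.135% of pharynx UMIs (0.131 to 0.139) and 0.163% of body wall UMIs (0.157 to 0.169). The share was highest in tentacle and lowest in mesentery, and no 2 of the intervals overlapped. Of the 93 members, 85 had at least 1 UMI, 8 had none, and 34 had the 50 UMIs over the 4 tissues that were asked for before a gene was compared. Such a gene was called high in a tissue when its CPM was at least 2 times, and low when it was at most 0.5 times, that of the other 3 tissues pooled. In tentacle 8 of the 34 members (23.5%) were high, against 15.7% of all 8222 genes compared, and 8 were low, against 23.5% of all genes. Of the high members, VGLU2_BOVIN NVE15610 had 67 of its 86 UMIs in tentacle and SYT6_HUMAN NVE15551 44 of 70. VGLU1_XENLA NVE20928 had 120 of 160 there and STX16_HUMAN NVE22234 66 of 108. These members reached 50 UMIs only with the UMIs of tentacle, so the high count is not read as an excess over the background. In mesentery 0 members were high, against 6.86%, and 15 (44.1%) were low, against 20.9%. In pharynx 4 were high, against 12.3%, and 9 (26.5%) were low, against 16%. In body wall 5 were high, against 11.1%, and 9 were low, against 26.7%. In all, 22 members (64.7%) were called in some tissue and direction, against 58.2% of all genes. The members thus stood furthest from the background in their low calls in mesentery, where their median log2 ratio to the other tissues was -0.94 and that of all compared genes was -0.16. Of these 15 low members, 6 had under 50 UMIs once the cells rich in Ncol3, described below, were left out. The other 9 were still low in mesentery. In the other tissues the members' median was -0.14 in tentacle, -0.41 in pharynx and 0.08 in body wall, and that of all genes -0.10, -0.11 and -0.25. Leaving out the 5% of barcodes with most UMIs left 3 members high in tentacle and 4 low in pharynx. Of the 8 members high in tentacle, 5 then had under 50 UMIs and could not be compared, and the other 3 were still high.

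**Figure D1:**
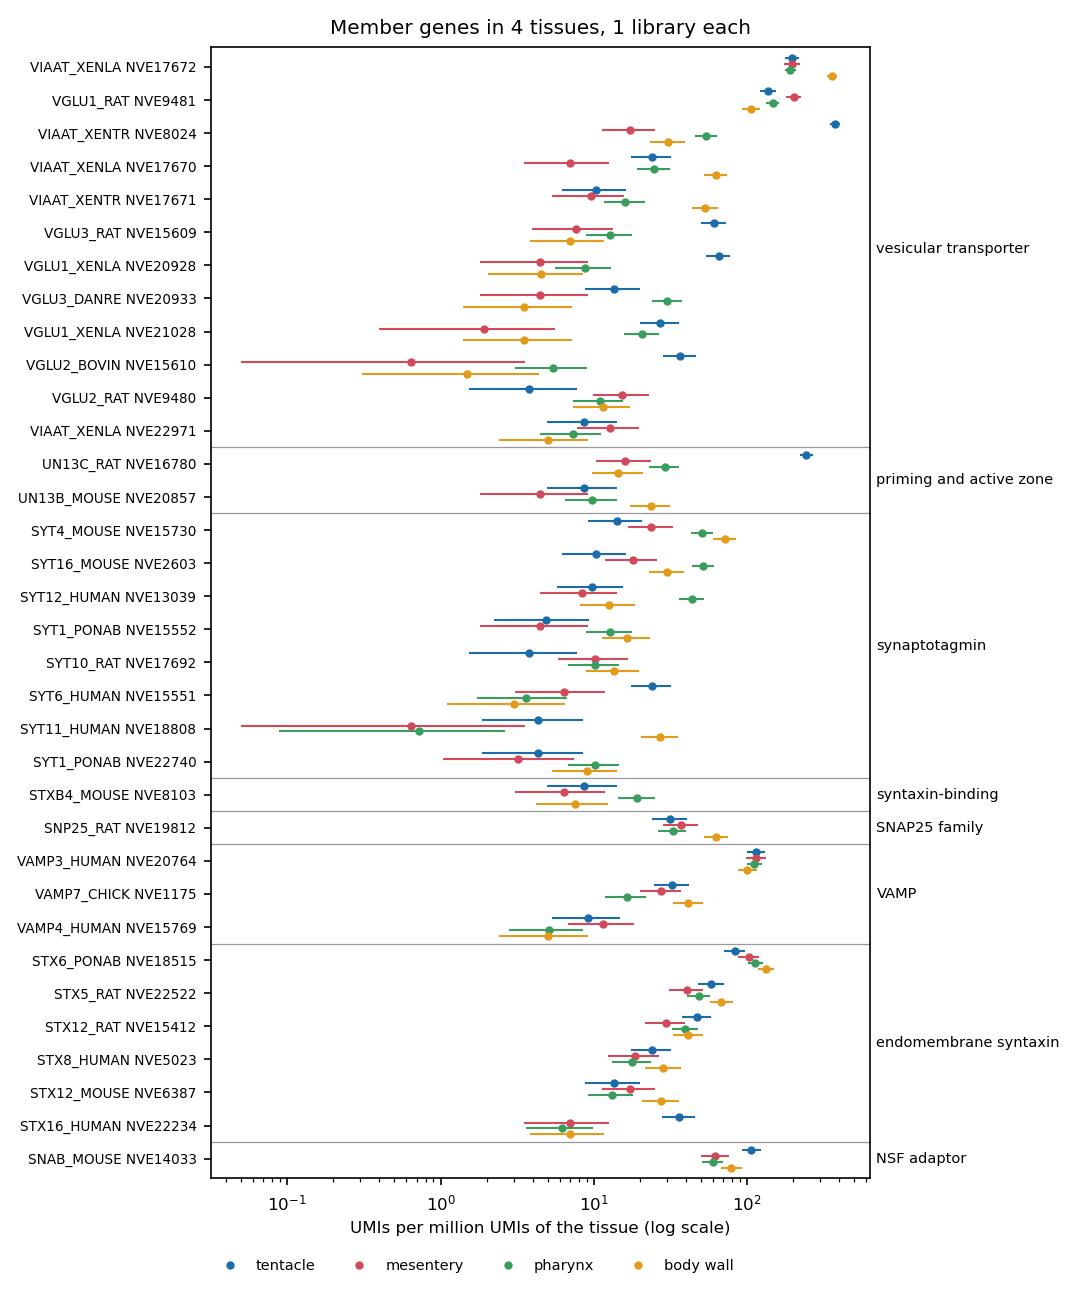
CPM in each tissue (x axis, log scale) for the 34 member genes with at least 50 UMIs, grouped by role, with 1 point per tissue library and lines for exact 95% Poisson intervals (points and line ends below the axis range are drawn at its left edge). UN13C_RAT NVE16780 and VIAAT_XENTR NVE8024 stand far to the right in tentacle, while VAMP3_HUMAN and STX6_PONAB lie close together in all 4 tissues.

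The vesicular transporters, 28 models of which 12 had 50 UMIs, made up 0.0997% of UMIs in tentacle, 0.0484% in mesentery, 0.0548% in pharynx and 0.0670% in body wall. VIAAT_XENTR NVE8024, named after the transporter that loads GABA and glycine, had 374 CPM in tentacle (689 UMIs), 17.3 in mesentery (27), 53.7 in pharynx (148) and 30.4 in body wall (61). Tentacle was far above the other tissues for this gene, 21.6-fold over mesentery (14.7 to 33.1) and 6.96-fold over pharynx (5.82 to 8.37). The glutamate transporter names VGLU3_RAT NVE15609 and VGLU1_XENLA NVE20928 were also highest in tentacle and next highest in pharynx. VGLU3_RAT NVE15609 had 60.8 CPM in tentacle, 7.67 in mesentery, 12.7 in pharynx and 6.99 in body wall. VGLU1_XENLA NVE20928 had 65.1 CPM in tentacle, 4.48 in mesentery, 8.71 in pharynx and 4.49 in body wall. Tentacle was the only high tissue for both. VGLU2_BOVIN NVE15610, whose identifier directly follows that of VGLU3_RAT NVE15609, had 67 UMIs in tentacle, 1 in mesentery, 15 in pharynx and 3 in body wall. Its ratio of tentacle to pharynx was 6.68 (3.77 to 12.6), and its ratio to mesentery, 56.8 on 1 UMI, could lie anywhere between 9.86 and 2278.

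For a further pair of glutamate transporter names pharynx stood closer to tentacle or above it. VGLU3_DANRE NVE20933 had 13.6 CPM in tentacle, 4.48 in mesentery, 30.1 in pharynx and 3.49 in body wall. It was called high in pharynx, which exceeded tentacle 2.22-fold (1.41 to 3.63). VGLU1_XENLA NVE21028 had 27.1, 1.92, 20.7 and 3.49 CPM in the same order, so that tentacle and pharynx, at a ratio of 1.31 (0.88 to 1.95), did not differ beyond counting error and both lay above the other tissues. It met the rule for high in tentacle but not in pharynx. Body wall was the high tissue for VIAAT_XENLA NVE17670, with 62.4 CPM against 23.9 in tentacle, 7.04 in mesentery and 24.7 in pharynx, and for its neighbour by identifier VIAAT_XENTR NVE17671, with 53.4 against 10.3, 9.59 and 16. The third model of that run, VIAAT_XENLA NVE17672, was more even, with 196 CPM in tentacle, 196 in mesentery, 192 in pharynx and 358 in body wall, and it held more UMIs (1914) than any other member. VGLU1_RAT NVE9481 was likewise called in no tissue, with 137, 201, 147 and 106 CPM. VGLU2_RAT NVE9480, the model numbered before it, was low in tentacle, with 3.80 CPM against 15.3 in mesentery, 10.9 in pharynx and 11.5 in body wall. Members lie in 13 such runs of consecutive identifiers (28 members in all), and whether such models are parts of 1 gene, tandem copies or copies that share reads was not tested.

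Among the priming proteins UN13C_RAT NVE16780, named after an UNC13 protein that makes docked vesicles ready to fuse, had 244 CPM in tentacle (449 UMIs), 16 in mesentery (25), 29.0 in pharynx (80) and 14.5 in body wall (29). Tentacle exceeded body wall 16.8-fold (11.6 to 25.4) and pharynx 8.39-fold (6.6 to 10.8). UN13B_MOUSE NVE20857 showed another order, with 23.5 CPM in body wall against 8.68 in tentacle, 4.48 in mesentery and 9.80 in pharynx. The other 6 models of this role, named after RIM, CAPS and UNC13, had 0 to 14 UMIs in all and were not compared. As a role, priming and active zone names took 0.0259% of tentacle UMIs and 0.00275% to 0.00449% in the other tissues, a difference carried by UN13C_RAT.

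Synaptotagmins, the calcium sensors of fusion and their relatives, formed the largest role by number of models (33, of which 8 had 50 UMIs), and took 0.0151% of UMIs in tentacle, 0.0122% in mesentery, 0.0254% in pharynx and 0.0294% in body wall. Of the 8, 6 were low in tentacle, where 23.5% of all compared genes were low, and 4 in mesentery, where 20.9% were. Cells rich in Ncol3, described below, held 48.6% of tentacle UMIs. Without them, 5 of the 8 members of any role that were low in tentacle were still low. The synaptotagmins SYT4_MOUSE NVE15730, SYT16_MOUSE NVE2603 and SYT10_RAT NVE17692 were among those 5. The synaptotagmins SYT12_HUMAN NVE13039, SYT1_PONAB NVE15552 and SYT11_HUMAN NVE18808 were no longer low in tentacle. With all cells kept, SYT4_MOUSE NVE15730 had 14.1 CPM in tentacle, 23.7 in mesentery, 50.8 in pharynx and 71.4 in body wall. SYT16_MOUSE NVE2603 had 10.3, 17.9, 51.5 and 29.9 CPM, and SYT12_HUMAN NVE13039 had 9.76, 8.31, 43.6 and 12.5 CPM, in the same order. Both were high in pharynx, and for SYT12_HUMAN pharynx exceeded body wall, the next tissue, 3.49-fold (2.25 to 5.61). SYT11_HUMAN NVE18808 was nearly confined to body wall, with 54 UMIs there, 8 in tentacle, 1 in mesentery and 2 in pharynx. The ratio of body wall to tentacle was 6.21 (2.94 to 15.1). SYT1_PONAB, a name of the fast synaptic calcium sensor, was given to several models: NVE15552 had 4.88 CPM in tentacle, 4.48 in mesentery, 12.7 in pharynx and 16.5 in body wall, and NVE22740 had 4.34, 3.2, 10.2 and 8.98. SYT10_RAT NVE17692 was low in tentacle, with 3.80 CPM against 10.2, 10.2 and 13.5. SYT6_HUMAN NVE15551 alone among the compared synaptotagmins was high in tentacle, with 23.9 CPM against 6.39 in mesentery, 3.63 in pharynx and 2.99 in body wall.

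SNARE proteins and their partners were the most even members. VAMP3_HUMAN NVE20764, named after a VAMP of recycling endosomes, had 114 CPM in tentacle, 114 in mesentery, 111 in pharynx and 100.3 in body wall, and its highest and lowest tissues differed by less than counting error. VAMP7_CHICK NVE1175, of late endosomes and lysosomes, had 32.5, 27.5, 16.3 and 41.4 CPM and was low in pharynx. VAMP4_HUMAN NVE15769, of the trans-Golgi network, had 9.22, 11.5, 5.08 and 4.99 CPM and was called in no tissue. Of the endomembrane syntaxins, STX6_PONAB NVE18515 (trans-Golgi network and early endosomes) had 83.0, 102.3, 113 and 132 CPM, and STX5_RAT NVE22522 (traffic from the endoplasmic reticulum to the Golgi) had 58.0, 40.3, 48.6 and 67.9. Neither was called in any tissue, nor was STX12_RAT NVE15412 of recycling endosomes with 47.2, 29.4, 39.6 and 41.4 CPM. STX16_HUMAN NVE22234, a syntaxin of the trans-Golgi network, was the exception, with 35.8 CPM in tentacle against 7.04 in mesentery, 6.17 in pharynx and 6.99 in body wall. For STX16_HUMAN the ratio of tentacle to pharynx was 5.80 (3.37 to 10.6). SNP25_RAT NVE19812, named after the SNAP25 of the plasma membrane, had 31.5, 37.1, 32.7 and 62.9 CPM and SNAB_MOUSE NVE14033, the adaptor that recruits NSF, had 106, 62.0, 59.5 and 78.8, and both stayed under the 2-fold rule. STXB4_MOUSE NVE8103, named after a syntaxin-binding protein, was high in pharynx, with 19.2 CPM against 8.68 in tentacle, 6.40 in mesentery and 7.49 in body wall.

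Another 51 members had 1 to 49 UMIs and were not compared. They include names central to neuronal release: the 3 STXB1 models, named after the Munc18 protein that guides the synaptic syntaxin, had 8, 3 and 0 UMIs over the 4 tissues, and the 2 synapsins SYN3_MOUSE and SYN2_RAT had 46 and 16. Singled out after their values were seen, SYT11_RAT NVE15731 had 41 of its 45 UMIs in body wall, VGLU1_RAT NVE16311 had 29 of 36 in tentacle, and SYT14_HUMAN NVE24995 had 23 of 33 in pharynx and 0 in body wall. At this depth most synaptotagmin and transporter models could not be ordered by tissue.

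To see which cells held the members, the 7112 kept cells were clustered on other genes, with all members left out, which gave 29 clusters. A member was called concentrated in a cluster when its CPM there was at least 4 times that of all other cells, on at least 10 UMIs. Of the 34 members 17 (50%) were concentrated in at least 1 cluster, against 48.3% of all compared genes, many of which, unlike the members, had helped to build the clusters. Clusters 1, 2, 5 and 24 carried Ncol3 at 13909 CPM or more, and the next cluster had 337. They are called Ncol3-rich here, a group formed after the data were seen; too few fixed cnidocyte markers (4 genes, Ncol3 and 3 DKK3 names) were at hand to name them as a cell type. They held 507 cells, 7.13% of cells and 16.5% of UMIs, and made up 26.4% of tentacle cells, 1.92% of mesentery cells, 4.21% of pharynx cells and 1.21% of body wall cells. Of tentacle UMIs they held 48.6%. In tissue sums, more cells of one kind and more RNA per cell cannot be told apart.

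In the Ncol3-rich clusters 9 of the 34 members (26.5%) were concentrated, against 8.78% of all compared genes. These were 5 glutamate transporter names, VIAAT_XENTR NVE8024, UN13C_RAT, SYT6_HUMAN and STX16_HUMAN, and they comprise every member that was high in tentacle plus VGLU3_DANRE NVE20933 of the pharynx. Outside these clusters the 5 glutamate transporter names had 1 to 9 UMIs, SYT6_HUMAN 1 and STX16_HUMAN 49. Those members reached the minimum of 50 UMIs only with the UMIs inside, so the count of 9 is not read as an excess over the background. UN13C_RAT, with 103 UMIs outside, and VIAAT_XENTR NVE8024, with 88, did not depend on them. For the median member 9.16% of UMIs lay in these clusters, and for the median compared gene 7.41%. Summed over all members, 25.8% of UMIs lay there, against 16.5% of the UMIs of all genes. The Ncol3-rich clusters held 98.8% of the UMIs of VGLU2_BOVIN NVE15610, 98.6% of SYT6_HUMAN NVE15551, 98.1% of VGLU1_XENLA NVE20928, 96.7% of VGLU3_DANRE NVE20933, 95.4% of VGLU3_RAT NVE15609 and 92.3% of VGLU1_XENLA NVE21028. VIAAT_XENTR NVE8024 had 90.5% of its UMIs there, at 621 CPM inside and 12.9 outside, a ratio of 48.2 (38.6 to 60.7). UN13C_RAT NVE16780 had 82.3%, at 356 CPM inside and 15.1 outside, a ratio of 23.6 (19 to 29.5). STX16_HUMAN NVE22234 had 54.6%. VAMP4_HUMAN came next with 37.3%, below the 4-fold rule. At the other end SYT1_PONAB NVE15552 and SYT11_HUMAN NVE18808 had 0 of 84 and 0 of 65 UMIs in these clusters, and SNP25_RAT NVE19812 had 8.91 CPM inside against 46.9 outside. SYT6_HUMAN NVE15551 and SYT1_PONAB NVE15552 thus carry consecutive identifiers and had nearly exclusive cell distributions.

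**Figure D2:**
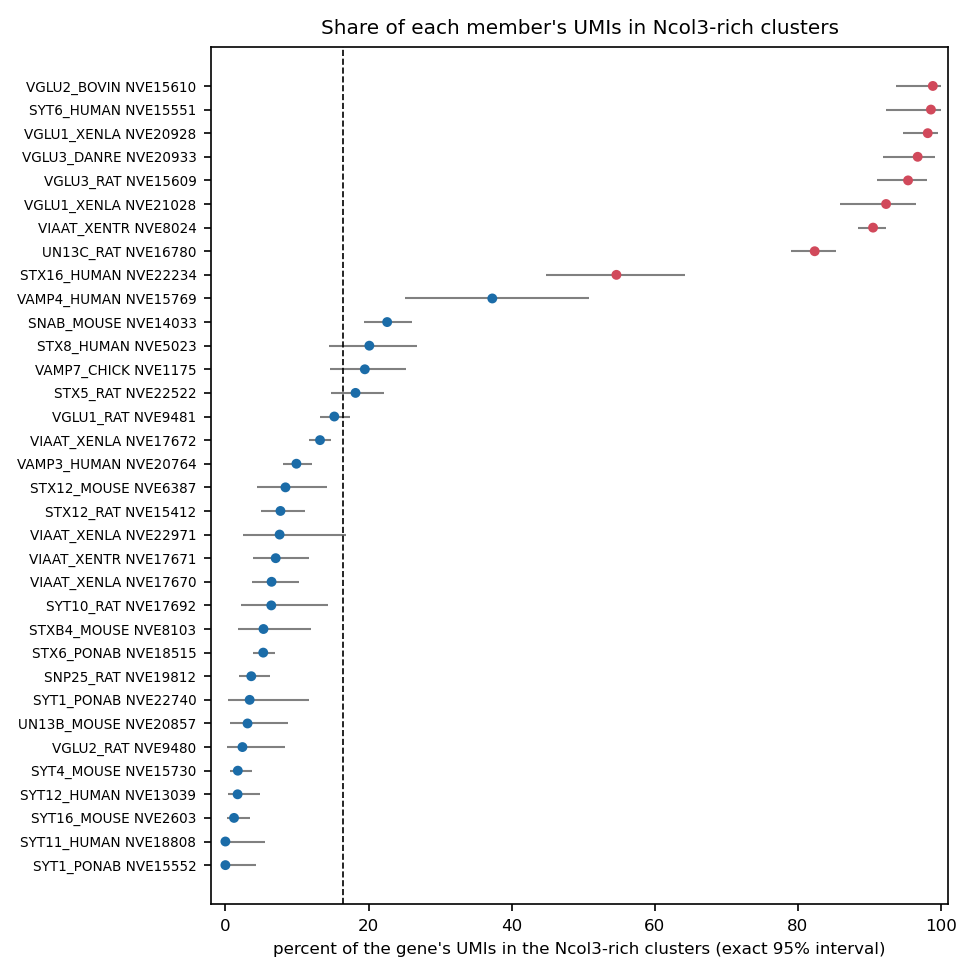
Percent of each member's UMIs that lay in the 4 Ncol3-rich clusters (x axis), for the 34 compared members, with exact 95% binomial intervals; red points mark members at least 4 times higher there than in other cells, and the dashed line is the share of all UMIs in these clusters, 16.5%. There are 8 members above 80%, STX16_HUMAN at 54.6%, and the remaining members between 0 and 37.3%.

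The Ncol3-rich cells were also deep, with a median of 1283 UMIs, and they were most frequent in tentacle, so the tissue values were recomputed without them, a step chosen after the data were seen. The share of member UMIs then fell from 0.200% to 0.142% in tentacle and stood at 0.109% in mesentery, 0.129% in pharynx and 0.160% in body wall. Only 26 members then had 50 UMIs. Of the 8 members high in tentacle, 6 could no longer be compared for lack of UMIs, and the other 2, UN13C_RAT and VIAAT_XENTR NVE8024, were still high. All 8 members low in tentacle could still be compared, and 5 of them were still low. Of the 15 low in mesentery, 6 could not be compared and the other 9 were still low. Of the 9 low in body wall, 7 could not be compared and the other 2 were no longer low. Of the 9 low in pharynx, 5 could not be compared and 1 of the other 4 was still low. No share of all genes is given for this setting, so these counts are not set against a background. UN13C_RAT stayed higher in tentacle, with 48.5 CPM (46 UMIs) against 6.11 in mesentery (9), 11.9 in pharynx (29) and 9.73 in body wall (19), a ratio of tentacle to body wall of 4.99 in place of 16.8. VIAAT_XENTR NVE8024 had 33.8 CPM in tentacle, 2.72 in mesentery, 10.2 in pharynx and 13.8 in body wall. The transporter role as a whole was then nearly level between tentacle (0.0459%), mesentery (0.0458%) and pharynx (0.0449%), with body wall at 0.0638%.

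The 9 members were not spread alike over the Ncol3-rich clusters. Cluster 5 (138 cells, 132 of them from tentacle) had 1085 CPM of VIAAT_XENTR NVE8024 and 572 of UN13C_RAT. Cluster 2 (149 cells from all 4 tissues) had 674 CPM of VIAAT_XENTR NVE8024 and 336 of UN13C_RAT, and was the cluster with most VGLU3_RAT NVE15609, at 250.5 CPM. Cluster 24 (70 pharynx and 11 mesentery cells) held 86 of the 122 UMIs of VGLU3_DANRE NVE20933, at 287 CPM, a gene with 82.6 CPM in cluster 2 and 0 UMIs in clusters 1 and 5. Cluster 24 also had most VGLU1_XENLA NVE21028, at 177 CPM. Cluster 1 (139 cells, 138 of them from tentacle), which had the highest Ncol3 level, was the one with STX16_HUMAN NVE22234 at 160.0 CPM, and its VIAAT_XENTR NVE8024 level was the lowest of the 4 clusters. SYT6_HUMAN NVE15551 was the most even of the 9, concentrated in each of the 4 clusters at 40.0 to 64.8 CPM. Clusters 1 and 5 come almost wholly from 1 library, so what marks the cluster and what marks the library cannot be told apart there.

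**Figure D3:**
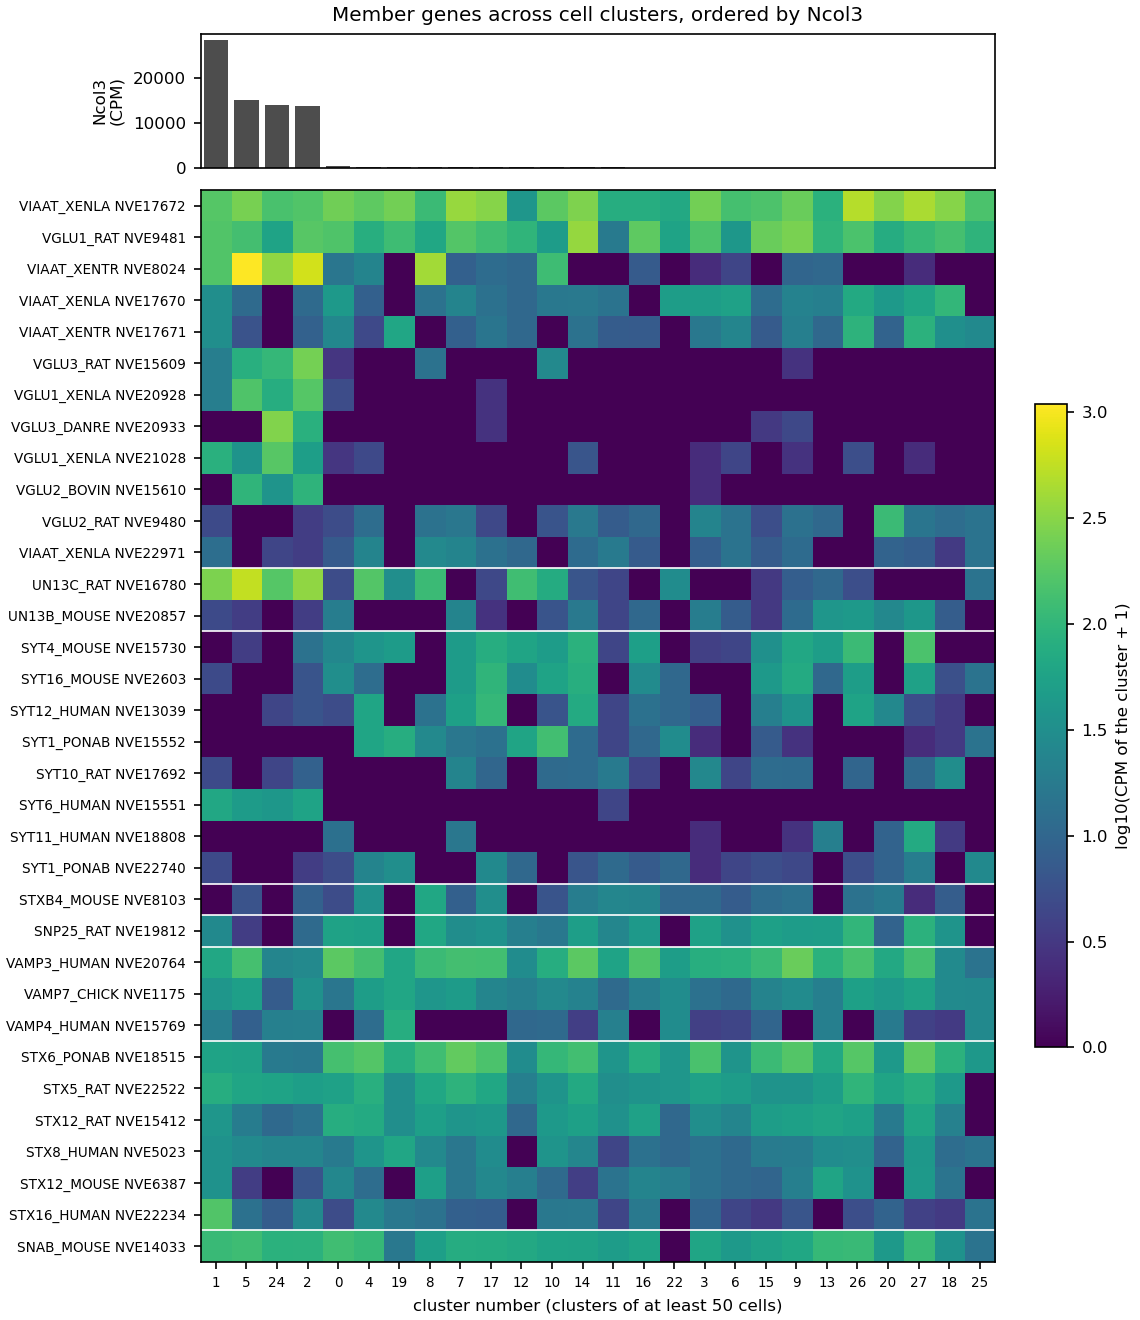
Level of the 34 compared members (rows, grouped by role) in the 26 clusters of at least 50 cells (columns, ordered by Ncol3, whose CPM is the bar plot on top); color is log10 of CPM plus 1. The 4 leftmost, Ncol3-rich clusters all have UN13C_RAT, VIAAT_XENTR NVE8024 and SYT6_HUMAN, and the VGLU names concentrated there differ from cluster to cluster. Outside them UN13C_RAT is also at 168 CPM in cluster 4, and VIAAT_XENTR NVE8024 at 408 CPM in cluster 8. VAMP3_HUMAN, STX6_PONAB and VIAAT_XENLA NVE17672 fill nearly the whole width.

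Cluster 2 allows the tissues to be set side by side within 1 cluster. UN13C_RAT had 421 CPM there in the 73 tentacle cells (344 to 509), 200 in the 12 mesentery cells (91.4 to 379), 128 in the 47 pharynx cells (46.9 to 278) and 219 in the 17 body wall cells (105 to 403). Pharynx lay below tentacle beyond counting error, and mesentery and body wall had intervals that overlapped that of tentacle. VIAAT_XENTR NVE8024 had 757 CPM in tentacle (653 to 873), 266 in mesentery (138 to 465), 596 in pharynx (396 to 861) and 702 in body wall (480 to 991). All but mesentery overlapped. VGLU3_RAT NVE15609 had 288, 178, 106 and 263 CPM in that order. VGLU3_DANRE NVE20933 was found in the body wall cells at 153 CPM on 7 UMIs and in the tentacle cells at 96.1 CPM on 24. Ncol3 itself differed within the cluster, at 16790 CPM in tentacle, 7705 in mesentery, 5853 in pharynx and 12564 in body wall, and its part in the member differences was not tested. For UN13C_RAT and VIAAT_XENTR NVE8024, differences of 10-fold and more between whole tissues were thus not seen between the same tissues inside cluster 2. This rests on 12 mesentery and 17 body wall cells, where 3 UMIs correspond to 66.6 and 65.8 CPM. Members with few UMIs cannot be judged at this depth, and the cause of the tissue differences was not tested.

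**Figure D4:**
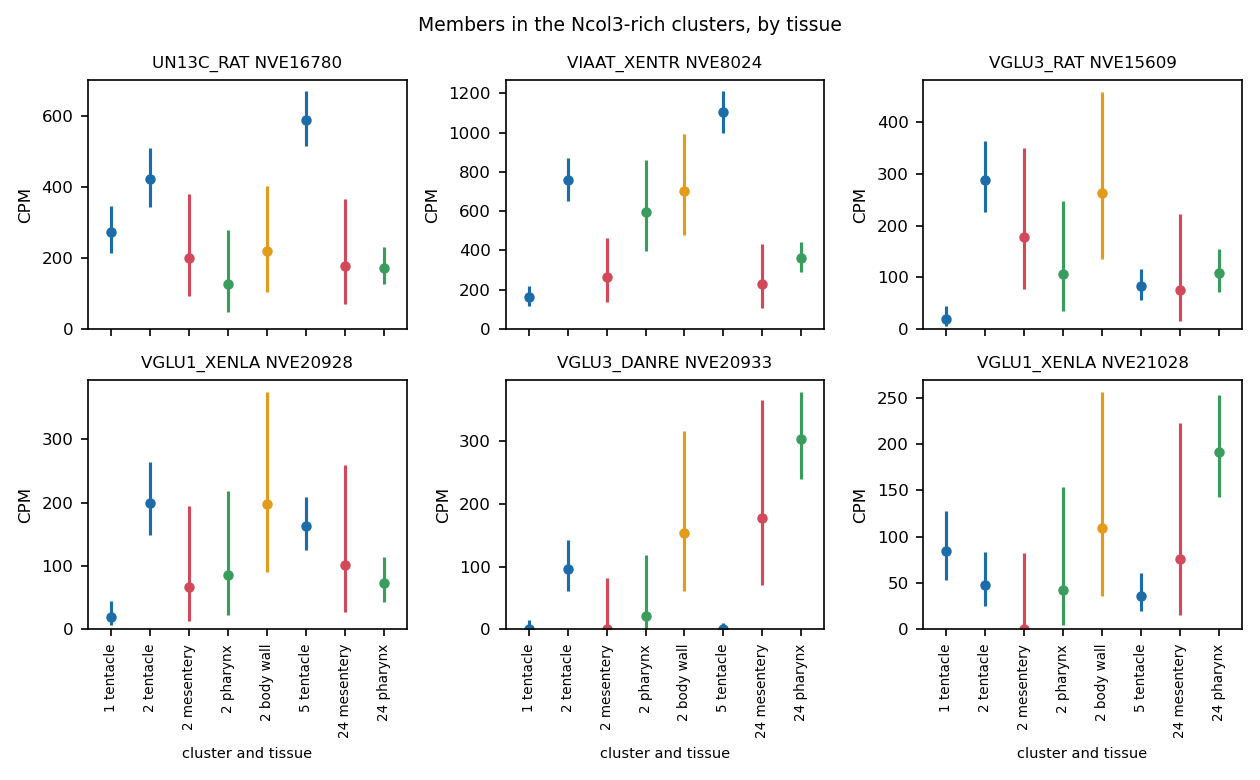
CPM of 6 members inside each Ncol3-rich cluster, by tissue (x axis, cluster number and tissue; combinations of under 10 cells are left out), with exact 95% Poisson intervals as lines. VIAAT_XENTR NVE8024 and UN13C_RAT are present in every tissue shown, and VGLU3_DANRE NVE20933 is at 0 in clusters 1 and 5 and highest in the pharynx cells of cluster 24.

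The fixed neuron markers had their highest sums in cluster 8 (5881 CPM), cluster 4 (3314), cluster 27 (2742) and cluster 26 (2706), and the muscle-like cluster 11 had 2018. Cluster 4, with 276 cells from all 4 tissues, was led by unnamed models and by the neuropeptide precursor Rfamide, at 1463 CPM, and cluster 8, with 106 cells, 71 of them from body wall, had the transcription factor name DMTA2_DANRE among its leading genes. Neither met the rule for a cell type name. Against all other cells 1 member was concentrated in cluster 4 (background 5.23%) and 0 in cluster 8 (background 2.91%). When the Ncol3-rich cells were set aside, 2 members were concentrated in cluster 4 (background 5.46%) and 1 in cluster 8 (background 2.74%). In cluster 4 these were UN13C_RAT, at 168 CPM against 8.85 in the remaining cells, a ratio of 19 (12.6 to 28.5), and SYT1_PONAB NVE15552, at 59.7 against 10.4, a ratio of 5.75 (3.11 to 10.0). UN13C_RAT in cluster 4 was similar across tissues, at 178 CPM in tentacle, 155 in pharynx and 193 in body wall, with 2 UMIs in mesentery. In cluster 8 VIAAT_XENTR NVE8024 had 408 CPM on 32 UMIs against 8.31 in the remaining cells, a ratio of 49.1 (30.8 to 77.2), and in cluster 4 it had 22.4 CPM on 6 UMIs. UN13C_RAT in cluster 8 was at 115 CPM against 13.9, a ratio of 8.23 (3.65 to 16.3), and was not called there because it had 9 UMIs. Of the 4 VGLU names with over 95% of UMIs in Ncol3-rich clusters, 0 UMIs fell in cluster 4 and 1, of VGLU3_RAT, in cluster 8. The member share of all UMIs was 0.221% in cluster 4 and 0.166% in cluster 8, and 0.178% to 0.311% in the Ncol3-rich clusters.

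Members were also concentrated in other clusters, 3 of which came almost wholly from 1 tissue. SYT1_PONAB NVE15552 was highest in cluster 10, with 155 cells from all 4 tissues and ALK_MOUSE and XYLT_DROME among the leading names, at 129 CPM or 17.5 times other cells (10.5 to 28.3). SYT12_HUMAN had 105 CPM in cluster 17, 6.85 times other cells (4.92 to 9.44). Cluster 17 was 91.7% pharynx cells. Cluster 27, all 589 cells of which came from body wall, held 50 of the 65 UMIs of SYT11_HUMAN, at 70.5 CPM, together with SYT4_MOUSE at 148 CPM, VIAAT_XENTR NVE17671 at 87.4 and UN13B_MOUSE at 39.5. VIAAT_XENTR NVE17671 was also concentrated, at 90.9 CPM, in cluster 26, where 185 of 186 cells were body wall cells and toxin names (TX411_NEMVE) led. VGLU2_RAT NVE9480 had 117 CPM in cluster 20, of 90 mesentery, body wall and pharynx cells led by unnamed models, 13.5 times other cells (7.01 to 24.1). For clusters 17, 26 and 27 a cell type and its library cannot be told apart. At the other extreme VAMP3_HUMAN, VAMP7_CHICK, STX6_PONAB, VGLU1_RAT NVE9481 and VIAAT_XENLA NVE17672 had UMIs in all 26 clusters of at least 50 cells, VAMP3_HUMAN from 13.4 to 218 CPM and VIAAT_XENLA NVE17672 from 38.7 to 502.

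By share of cells with a UMI, tentacle was again highest for both leading genes. After thinning each cell to 300 UMIs, UN13C_RAT was found in 3.85% of tentacle cells (2.87 to 5.04), 0.368% of mesentery cells, 0.464% of pharynx cells and 0.484% of body wall cells, and unthinned in 14.4%, 1.11%, 1.68% and 1.45%. The thinned shares outside tentacle rest on 5 to 13 cells per tissue, and no order is read among them. VIAAT_XENTR NVE8024 was found in 4.70% of thinned tentacle cells and 0.295% to 0.666% of cells elsewhere (15.2% and 1.03% to 1.89% unthinned). In the Ncol3-rich clusters the thinned share was 7.69% for UN13C_RAT and 11.8% for VIAAT_XENTR NVE8024, and unthinned 35.7% and 43.2%. Cluster 11, a muscle-like cluster of 194 cells led by myosin light chain and tropomyosin names, was set beside them. That such cells lack both genes was assumed from the muscle names and was not tested, and the cluster had 2018 CPM of the fixed neuron markers. Its median of 1100 UMIs was close to the 1283 of the Ncol3-rich cells. No member was concentrated in it (0 of 34, background 3.14%). There UN13C_RAT was in 0 thinned cells, where 3 cells would make 1.55% and the exact interval reaches 1.88%, and 0.515% of unthinned cells, and VIAAT_XENTR NVE8024 was in 0 of 194 cells either way. In cluster 8 VIAAT_XENTR NVE8024 was in 10.4% of thinned cells and 23.6% of unthinned cells, at a median of 677 UMIs. Cluster 11 held no body wall cell, and with 194 cells it cannot separate free RNA from expression at the low shares of UN13C_RAT outside tentacle. VAMP3_HUMAN, by contrast, was in 2.78% to 3.17% of thinned cells in each tissue and 2.06% of the muscle-like cells.

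Genes of the same pathways that the name rule does not cover were listed apart. Of 71 names of the wider release and fusion machinery, 33 had 50 UMIs; 6 (background 15.7%) were high in tentacle and 1 (background 23.5%) low there, and 21 were called in no tissue. The Golgi SNARE GOSR2_RAT NVE11840 had 52.6 CPM in tentacle against 19.8 in mesentery, 12.3 in pharynx and 13.0 in body wall, and 55.3% of its UMIs lay in the Ncol3-rich clusters, close to STX16_HUMAN. In these clusters 3 of the 33 (background 8.78%) were concentrated: GOSR2_RAT, BET1_MOUSE and BET1L_DANRE, all named after SNAREs of early secretory traffic. BET1_MOUSE and BET1L_DANRE had 41 and 29 UMIs outside these clusters, and so reached 50 UMIs only with the UMIs inside. MYOF_XENTR NVE19352, named after a ferlin of membrane fusion and repair, was high in body wall, with 92.3 CPM against 28.8 in tentacle, 18.5 in mesentery and 23.6 in pharynx.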

How the data were processed

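The authors deposited raw UMI counts for every gene and barcode, 7000 barcodes per library, without scaling. The tool named by the submitters' processing notes is Cell Ranger (version 2.1.0); genome build and mapping settings: not given in the sources used here. Members and lists were chosen with earlier results of these data known. Barcodes with at least 300 UMIs were kept, and UMIs were summed per tissue and scaled to CPM. A count of 0 was set to 3 UMIs per library when a gene was called. Poisson, Clopper-Pearson and conditional binomial intervals (95%) cover counting error only. Clusters were made with scanpy 1.11.5 and Leiden (igraph 0.11.9; 2000 variable genes, 30 components, 15 neighbours, resolution 1, seed 1), without the members. A cluster was named from at least 3 markers of at least 2 families among its 30 leading genes. No doublet caller was run; an alternative left out the 5% of barcodes with most UMIs. Named genes were, per role, the 3 members with most UMIs, every member called in a tissue, and the 3 with the largest ratio per cluster. The code was tested on simulated data. Python 3.11.15, numpy 2.4.6, scipy 1.17.1 and pandas 2.3.3 were used.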

Additional observations from a re-analysis of the deposited data

Results flagged for a closer look

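Barcodes under 300 UMIs, which no comparison used, also held member UMIs. Members took 0.136% of the UMIs of such barcodes in tentacle, 0.111% in mesentery, 0.137% in pharynx and 0.161% in body wall. In the kept barcodes the shares were 0.200%, 0.113%, 0.135% and 0.163%, so that tentacle was the tissue where the 2 kinds of barcode differed beyond counting error. Whether these UMIs come from shallow cells or from free RNA was not tested.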

How the results depend on the processing

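No paired analysis was possible because each tissue has 1 library, and for the same reason no replicate could be left out. The share of member UMIs in tentacle became 0.181% with all deposited barcodes, 0.182% without the 5% of barcodes with most UMIs, 0.142% without the Ncol3-rich clusters (an alternative chosen after seeing the data; pharynx 0.129%), and 0.181% without the member with most UMIs (mesentery 0.0931%, pharynx 0.116%, body wall 0.127%). Without the 100 genes with most UMIs the shares were 0.357% in tentacle, 0.222% in mesentery, 0.258% in pharynx and 0.318% in body wall. Tentacle kept the highest share under each of these except the Ncol3-rich one, where body wall (0.160%) was higher. Members high in tentacle numbered 3 without the deepest 5%, 2 without the Ncol3-rich clusters and 14 with at least 20 UMIs per gene; in mesentery 1 with barcodes of at least 500 UMIs and 1 with 20 UMIs per gene; in pharynx 2 at 4-fold; in body wall 8 with all barcodes, 13 with 20 UMIs, 3 with 100 UMIs and 2 at 4-fold. Members low in tentacle numbered 5 without the Ncol3-rich clusters, 4 with 100 UMIs per gene and 0 at 4-fold; in mesentery 27 with 20 UMIs and 7 at 4-fold; in pharynx 4 without the deepest 5%, 1 without the Ncol3-rich clusters, 15 with 20 UMIs and 1 at 4-fold; in body wall 3 without the Ncol3-rich clusters. Without the deepest 5% the ratio of tentacle to body wall rose to 20.4 for VGLU3_RAT NVE15609 and 24.0 for SYT6_HUMAN NVE15551; without the Ncol3-rich clusters the ratio of tentacle to pharynx of STX16_HUMAN was 2.07 and that of tentacle to mesentery of VIAAT_XENTR NVE8024 was 12.4. Concentrated members numbered 17 to 20 under other cluster settings, of which 16 or 17 were among the 17 reported. Of the 8 members high in tentacle, 5 without the deepest 5% and 6 without the Ncol3-rich clusters had under 50 UMIs and could not be compared, and the others were still high. Other causes were not tested. Depth left 59 members without a comparison.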

Other observations

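Names tied to neuropeptide processing and secretory granules, which no comparison above covers, were measured in the same cells: 16 names matched and 10 had 50 UMIs. PTPRN_RAT NVE19082, 1 of the 10, is not named after a processing enzyme. Of the 10, 6 were high in tentacle, against 15.7% of all compared genes, and 7 low in body wall, against 26.7%. CBPD_LOPSP NVE8855, named after a carboxypeptidase that trims basic residues, had 122.6 CPM in tentacle, 2.56 in mesentery, 3.63 in pharynx and 7.98 in body wall. NEC1_MUSCO NVE2234, named after the prohormone convertase that cuts precursors, had 96.0, 26.9, 26.1 and 8.48 CPM in that order. In the Ncol3-rich clusters 6 of the 10 were concentrated, against 8.78% of all compared genes, NEC1_MUSCO with 71.4% of its UMIs there, CBPE_PANTR NVE18157 with 99.1% and 4 of the 5 CBPD_LOPSP models with 95% to 99.4%. These 6 were also the ones high in tentacle. CBPE_PANTR and the 4 CBPD_LOPSP models had 1 to 12 UMIs outside the Ncol3-rich clusters. They reached 50 UMIs only with the UMIs inside, so neither count of 6 is read as an excess over the background. The Ncol3-rich clusters are also those in which UN13C_RAT and several, but not all, of the compared VGLU names were concentrated.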
